A study of Drosophila melanogaster with 14 samples.

Results

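The Cpr genes of Drosophila melanogaster encode cuticular proteins that carry the Rebers-Riddiford consensus, a stretch that binds chitin. On the arrays 60 probe sets had a single gene symbol beginning with Cpr followed by a digit, and they stood for 58 genes out of 10844 genes with a probe set of their own. For the 2 genes with a pair of probe sets the one with the higher mean deposited signal over all arrays was taken. The choice between probe sets used this mean and no difference between groups. Which genes are described in detail was decided with earlier results of these data known. The number and letters in each name give the band of the polytene chromosome map where the gene lies, so that genes with the same number and first letter, such as Cpr72Ea, Cpr72Eb and Cpr72Ec, are close to each other.

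RNA was measured on 14 single-colour Affymetrix arrays in 3 groups. CS heads were 6 samples of whole heads of the wild-type strain Canton-S. Rh1 heads were 4 samples of whole heads of flies carrying Rh1-GAL4, which drives expression in photoreceptors R1-R6, the outer ones of each facet, together with P{UAS-dPABP-FLAG}, a FLAG-tagged poly(A)-binding protein (the labels also write P{UAS-hPABP-FLAG}, and which form was used was not settled here). The immunoprecipitates (IP) were 4 samples of RNA bound to the tagged protein, pulled down with anti-FLAG beads after heads of flies described in the same way were fixed in formaldehyde, and the labels call them photoreceptor cells R1-R6. The Rh1 heads and the IP are thus labelled with the same driver and transgene, and the CS labels name neither. Each head sample pooled about 100 heads and each IP about 200, and the labels used here give no age or sex. Nothing in them said whether replicates came from separate cohorts, so p-values reflect no more than the spread among the samples at hand, which may be technical.

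Insect cuticle is secreted by epidermal cells as a layered mixture of chitin fibres and proteins, and the proteins set how stiff, elastic or transparent it is. In the head it covers the capsule, mouthparts, antennae and bristles. The corneal lens of each facet of the compound eye is also cuticle, and cone and primary pigment cells secrete it. Cpr72Ec, drosocrystallin and retinin are among the proteins known from the lens. Which other Cpr proteins occur in the lens was not examined here.

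A signal is an intensity without absolute unit, so signals of different probe sets are not compared with each other. Arrays were scaled to a common trimmed mean, and tests used log2(signal + 32), which makes changes of low signals look smaller. The limma test took probe sets with a mean log2 value of at least 7.15, the 30th percentile, and a gene was called at a Benjamini-Hochberg adjusted p under 0.05 over all 9776 probe sets tested. Of the Cpr genes 50 passed this filter and 8 did not. The 8 were Cpr30B, Cpr47Ed, Cpr49Ab, Cpr49Ah, Cpr5C, Cpr65Ea, Cpr67Fa2 and Cpr78E, with group means from 10.01 to 116.4 and no array above 142.3. Cpr35B lay just inside the filter with a mean of 7.15, and Cpr65Ea just outside with 7.07.

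The arrays of the 2 head groups resembled each other closely (CS head arrays correlated at 0.980 to 0.994 over probe sets, Rh1 head arrays at 0.985 to 0.994), while the IP arrays correlated at 0.847 to 0.976. The ratio of 5′ to 3′ control signal for eIF-4a, a measure of how complete the RNA was, ran from 0.444 to 0.593 in CS heads and from 0.604 to 0.678 in Rh1 heads, so the head groups did not overlap. The IP replicates 1, 2, 3 and 4 had ratios of 0.531, 0.0284, 0.209 and 0.0432. Against Rh1 heads, 7 of 8 photoreceptor markers were higher in IP, and all 6 tested muscle and all 6 tested fat body markers were lower, where 21.8% of all tested probe sets were higher and 25.6% lower. Markers of other head cells were mixed: of 3 for glia nrv2 was higher (1.18, SE 0.26) and Gat lower (-3.30, SE 0.10), and of 5 tested for cone and pigment cells 2 were higher and 1 lower. Muscle markers still summed to signals of 2452 to 3322 in IP, against 19530 to 21090 in Rh1 heads. Epidermal markers (grh, kkv, knk, verm, serp, Duox, vvl) summed to 2143 to 2564 in IP, 4981 to 6046 in Rh1 heads and 2992 to 4160 in CS heads. The head sums are uneven: serp averaged 1570 in CS heads and 2410 in Rh1 heads, and verm 1004 and 1961. Of the other tested epidermal markers kkv was higher in Rh1 heads by 0.16 on the log2 scale, and Duox and vvl did not pass. The IP sum is uneven too: serp averaged 772.3 there, while grh read 107.1, 15.65, 33.36 and 12.55, under the filter signal of 110. What part such other cell types have in the Cpr values was not tested.

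Between Rh1 heads and CS heads a few Cpr genes moved far and most moved little. Cpr62Bc was 4.62-fold and Cpr49Ae 2.07-fold higher in Rh1 heads, and Cpr72Ec was 4.78-fold lower. Among 50 genes tested, 8 rose, 17 fell and 25 missed the threshold. The 25 called were 50%, against 54.1% of all tested probe sets, with 16% higher and 34% lower against 24.4% and 29.7%. With all arrays in 1 fit 7 rose and 10 fell, where calls over all probe sets went from 5293 to 3013. The share called in the family lay near the background, and its median log2 fold was -0.04 against -0.02 over all probe sets. At 2-fold or more, 2 genes were higher and 1 lower, or 4% and 2%, against a background of 0.716% and 0.696%. Groups did not overlap for 17 genes, or 34%, against 38.8% of all probe sets. Summed over the 58 genes, the signal was 25398 to 31354 in CS heads, 32477 to 34312 in Rh1 heads and 19642 to 34349 in IP. These sums are uneven and do not describe the family as a whole. Cpr62Bc alone averaged 1161 in CS heads and 5390 in Rh1 heads, and it ran from 437.0 to 13060 in IP. The 5′ to 3′ ratio of eIF-4a was higher in every Rh1 head array than in every CS array, and its part in these differences was not tested. In whole heads fewer cells of a type and less RNA per cell cannot be told apart.

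Cpr72Ec, a lens protein gene, had a lowest, median and highest signal of 1478, 2534 and 3015 in the 6 CS head arrays. Its Rh1 head arrays read 430.9, 426.7, 451.2 and 476.0, all below every CS array. The log2 fold was -2.26 (SE 0.19; limma adjusted p = 5.41e-07). In IP it was 1283, 1290, 1141 and 1496, above every Rh1 head array, with a log2 fold of 1.48 (SE 0.11; limma adjusted p = 4.34e-06). Cpr72Ec was the one Cpr gene called higher in IP by at least 2-fold, or 2% of those tested against a background of 7%. The IP arrays did not reach the CS mean: IP over CS heads gave -0.78 (SE 0.22; limma adjusted p = 0.00927), although IP replicate 4 lay above the lowest CS array. These comparisons share arrays in pairs, so their folds are not independent of each other.

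Other genes of eye and lens did not all share the values of Cpr72Ec. Crys, the gene of drosocrystallin, was not analysed here. The corneal gene retinin averaged 17690 ± 895 in CS heads (SD, n = 6) and 19050 ± 704 in Rh1 heads (SD, n = 4), with a log2 fold of 0.11 (95% interval 0.00 to 0.21; limma adjusted p = 0.0733). That interval lies far from the one for Cpr72Ec, -2.66 to -1.85. In IP retinin read 12960, 10870, 14900 and 2249, all below the Rh1 head arrays, and its log2 fold of -1.19 (SE 0.53; limma adjusted p = 0.0897) did not pass. Other genes listed as markers of cone and pigment cells went both ways in IP. Both bw (2.23, SE 0.09; limma adjusted p = 2.79e-07) and santa-maria (1.12, SE 0.13; limma adjusted p = 1e-04) were higher. By contrast pros was lower (-1.92, SE 0.11; limma adjusted p = 1.01e-06), and Pdh did not pass. How specific these genes are for cone and pigment cells was not tested. Their part in the rise of Cpr72Ec in IP was not tested. Of the 5 tested markers of cone and pigment cells, retinin among them, 1 was higher in Rh1 heads and the other 4 did not pass. Over the 6 measured, signals summed to 31130 to 33910 in Rh1 heads against 29990 to 32400 in CS heads. Most of this sum is retinin and Pdh, with means of 19050 and 10550 in Rh1 heads. Photoreceptor markers were lower in Rh1 heads in 8 of 8 cases (summed signals 18810 to 19460 against 51950 to 57460), and their part in the value of Cpr72Ec was not tested.

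The neighbours of Cpr72Ec on the chromosome behaved differently. In the RefSeq gene order of assembly Release 6 no other protein-coding gene lies between Cpr72Ea, Cpr72Eb and Cpr72Ec. Cpr72Ea averaged 820.1 ± 176 in CS heads (SD, n = 6), 843.9 ± 193 in Rh1 heads (SD, n = 4) and 726.6 ± 182 in IP (SD, n = 4), and the groups overlapped. Cpr72Eb had 220.3 ± 14.5 (SD, n = 6), 230.7 ± 32.8 (SD, n = 4) and 267.5 ± 73.9 (SD, n = 4). For Rh1 heads over CS heads the 95% intervals of the log2 fold were -0.28 to 0.36 for Cpr72Ea and -0.11 to 0.21 for Cpr72Eb, both far from the interval for Cpr72Ec.

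**Figure D1:**
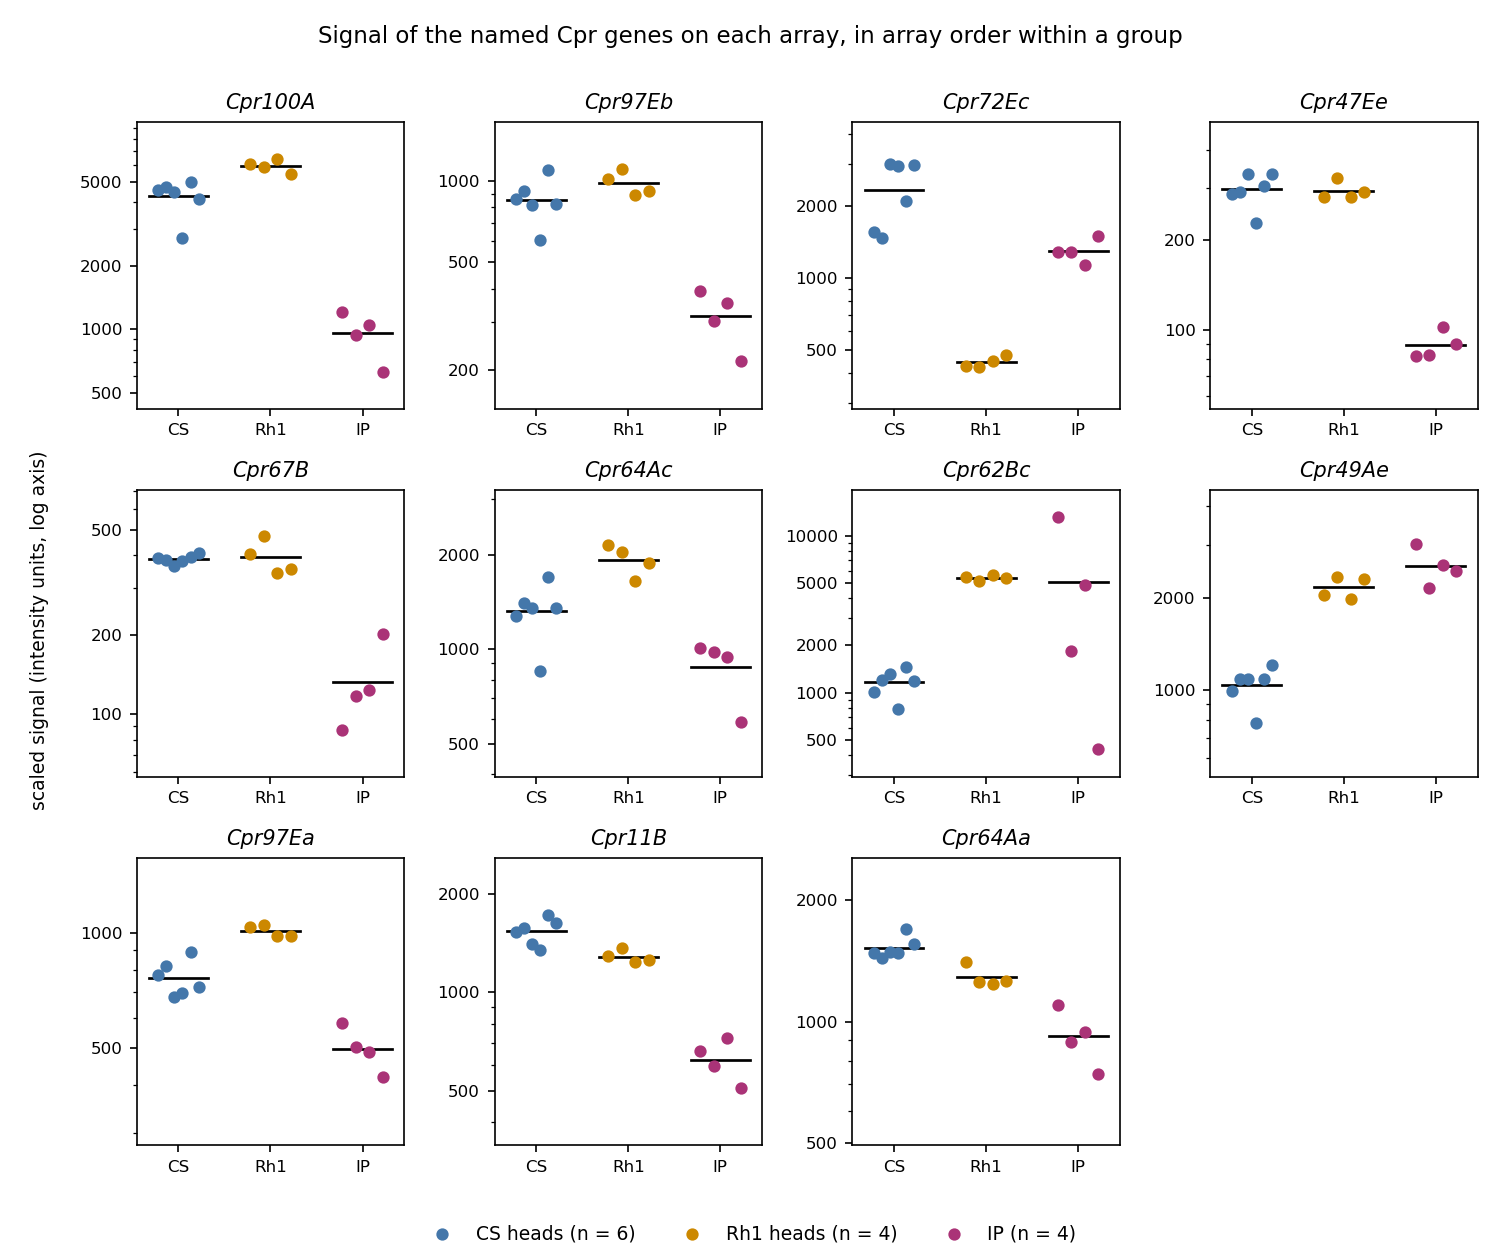
Scaled signal (log axis) of the 11 Cpr genes described array by array, for CS heads, Rh1 heads and IP, where each point is 1 array and the bar is the group mean. Cpr72Ec is low in all 4 Rh1 head arrays, Cpr100A is low in all 4 IP arrays, and the IP arrays of Cpr62Bc run from 437.0 to 13060.

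Cpr62Bc, a gene of the 62B group, had the steepest rise in Rh1 heads among the tested Cpr genes. It read 784.4 at the lowest, 1199 at the median and 1464 at the highest in CS heads, and 5475, 5134, 5585 and 5367 in Rh1 heads. The groups were far apart, with a log2 fold of 2.21 (SE 0.13; limma adjusted p = 1.37e-08). Its IP arrays read 13060, 1847, 4868 and 437.0 and lay on both sides of the Rh1 head arrays. Among tested Cpr genes its SD in IP was the highest, at 2.05 log2 units, where the median Cpr gene had 0.196. The fold of IP over Rh1 heads was -0.98 on the log2 scale (95% interval -2.85 to 0.89; limma adjusted p = 0.358), so neither a rise nor a fall of Cpr62Bc could be read from these 4 arrays. Against CS heads it was 1.23 (95% interval -0.29 to 2.75; limma adjusted p = 0.146), which passed without IP replicate 4 at 2.08 (limma adjusted p = 0.00158; between alternatives it ran from 1.15e-06 to 0.466). Without IP replicate 1 the fold against Rh1 heads passed at -1.73 (limma adjusted p = 0.0486; between alternatives it ran from 0.0486 to 0.844), and without IP replicates 2 and 4 its sign turned to 0.56 without passing.

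Both IP arrays with the low Cpr62Bc signals were also the ones with a 5′ to 3′ ratio under that of the other IP arrays, and the part of RNA completeness was not tested. The neighbouring genes were also lowest in IP replicate 4, to a smaller degree. This was not particular to them: IP replicate 4 was the lowest IP array for 20 of the 50 tested Cpr genes. Over all tested probe sets it was the lowest for 27.0%. Cpr62Bb read 785.9, 529.6, 694.2 and 265.0 in IP against 460.9 to 508.9 in Rh1 heads, and did not pass (0.12, SE 0.27). Cpr62Ba read 313.9, 255.2, 329.8 and 129.4 against 126.8 to 142.2, and it was called higher (0.71, SE 0.23; limma adjusted p = 0.0281) with 3 of its 4 arrays above Rh1 heads. In Rh1 heads over CS heads these 2 neighbours gave 0.11 (95% interval -0.08 to 0.30) and -0.09 (95% interval -0.19 to 0.01), so that the rise of Cpr62Bc was not found in them.

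Cpr49Ae was high in both groups that carry the transgene. It ran from 782.6 over a median of 1089 to 1212 in CS heads, and read 2045, 2353, 1993 and 2321 in Rh1 heads and 3022, 2164, 2580 and 2456 in IP. Every array of Rh1 heads and of IP lay above every CS array, while these 2 groups overlapped. The log2 fold was 1.05 for Rh1 heads over CS heads (SE 0.10; limma adjusted p = 1.80e-06) and 1.27 for IP over CS heads (SE 0.13; limma adjusted p = 6.04e-06). For IP over Rh1 heads it was 0.22 (95% interval -0.08 to 0.52; limma adjusted p = 0.204). It passed there with array weights (0.23, limma adjusted p = 0.0212) and without IP replicates 2 and 4 (0.36, limma adjusted p = 0.0188; between alternatives it ran from 0.0188 to 0.452). Its neighbour Cpr49Af went the other way in Rh1 heads (-0.21, SE 0.08; limma adjusted p = 0.0448) and was higher in IP than in Rh1 heads (0.54, SE 0.11; limma adjusted p = 0.00373).

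Smaller rises in Rh1 heads were found in Cpr97Ea, Cpr100A and Cpr64Ac. Cpr97Ea was 677.7 to 887.9 in CS heads with a median of 747.9, and 1035, 1044, 982.3 and 981.9 in Rh1 heads, without overlap (log2 fold 0.40, SE 0.07; limma adjusted p = 0.000534). Cpr100A was 2722 to 4980 in CS heads with a median of 4512, and 6056, 5887, 6416 and 5415 in Rh1 heads, again without overlap (0.50, SE 0.13; limma adjusted p = 0.00603). Cpr64Ac was 849.5 to 1692 with a median of 1350 in CS heads, and 2146, 2037, 1650 and 1879 in Rh1 heads, where 1 array fell within the CS range (0.56, SE 0.14; limma adjusted p = 0.00440). Cpr49Ac, Cpr50Cb and Cpr76Bb made up the other rises, at log2 folds of 0.20 to 0.32. Among the falls, Cpr72Ec stood alone in size. The other 16 lay between -0.39 and -0.18 and included Cpr51A (-0.39, SE 0.08), Cpr76Ba (-0.36, SE 0.06), Cpr11B (-0.25, SE 0.07) and Cpr64Aa (-0.23, SE 0.06). The last pair did not pass with all arrays in 1 fit (limma adjusted p = 0.0673 for Cpr11B and 0.0784 for Cpr64Aa) or with replicate numbers as a block (0.0511 and 0.0509). Over all alternatives the p ran from 0.00352 to 0.0673 for Cpr11B and from 0.00234 to 0.0784 for Cpr64Aa.

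In the comparison of IP with Rh1 heads, which asks which transcripts were enriched or depleted in RNA bound to the tagged protein, more Cpr genes were lower than higher. Cpr100A was 6.16-fold, Cpr97Eb 2.98-fold and Cpr47Ee 2.68-fold lower in IP. Among 50 genes tested, 5 rose, 15 fell and 30 missed the threshold. The 20 called were 40%, against 47.4% of all tested probe sets, with 10% higher and 30% lower against 21.8% and 25.6%. The median log2 fold of the Cpr genes was -0.05 and that of all probe sets 0.01. At 2-fold or more 6 genes, or 12%, were lower, where the background was 9%. Groups did not overlap for 20 genes, or 40%, against 46.6% of all probe sets. Fixation and sonication were part of the IP only, so their effects and binding by the tagged protein cannot be told apart.

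Cpr100A had the largest fall among the tested Cpr genes. Its IP arrays read 1215, 943.6, 1054 and 632.4, against 5415 to 6416 in Rh1 heads, so that no array came near the other group. The log2 fold was -2.62 (SE 0.19; limma adjusted p = 4.63e-06), and against CS heads it was -2.13 (SE 0.20; limma adjusted p = 2.90e-06). This gene thus stood high in Rh1 heads and low in IP, the reverse of Cpr72Ec. Cpr97Eb read 391.2, 302.6, 352.0 and 214.6 in IP and 1022, 1111, 892.2 and 922.3 in Rh1 heads (-1.58, SE 0.17; limma adjusted p = 4.96e-05). In CS heads it ran from 606.1 to 1100 with a median of 841.5 and overlapped with Rh1 heads (0.22, SE 0.12; limma adjusted p = 0.148), a fold that passed without CS replicate 5 (0.29, limma adjusted p = 0.0305; between alternatives it ran from 0.0138 to 0.338). Its neighbour Cpr97Ea was lower too, at 582.6, 503.6, 486.9 and 419.2 in IP (-0.98, SE 0.11; limma adjusted p = 7.00e-05).

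Cpr47Ee and Cpr67B were lower in IP, and their head groups overlapped. Cpr47Ee read 278.2, 323.8, 278.3 and 290.9 in Rh1 heads and 81.86, 82.70, 102.4 and 90.11 in IP (-1.42, SE 0.09; limma adjusted p = 1.76e-06). Its CS arrays ran from 229.2 to 332.6 with a median of 297.4, and the 95% interval of Rh1 heads over CS heads was -0.19 to 0.17. Cpr67B read 403.0, 472.7, 343.0 and 354.8 in Rh1 heads and 86.63, 117.1, 123.0 and 200.8 in IP (-1.41, SE 0.19; limma adjusted p = 0.000259). In CS heads it ran from 363.0 to 408.5 with a median of 387.5, and the interval there was -0.15 to 0.17. The IP signals of Cpr47Ee lay below 110, the signal at the filter, where the added 32 lowers a fold most.

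Cpr64Ac, Cpr11B and Cpr64Aa were also lower in IP. Cpr64Ac read 1008, 978.0, 947.1 and 587.8 in IP (-1.13 against Rh1 heads, SE 0.18; limma adjusted p = 0.00067). Against CS heads it passed at -0.57 (limma adjusted p = 0.022), but not with median scaling (-0.53, limma adjusted p = 0.0542) or without IP replicate 4 (-0.39, limma adjusted p = 0.0518; between alternatives it ran from 0.00387 to 0.0891). Cpr11B read 1292, 1365, 1238 and 1261 in Rh1 heads and 659.9, 592.7, 725.4 and 510.6 in IP (-1.02, SE 0.12; limma adjusted p = 9.22e-05). In CS heads it ran from 1348 to 1725 with a median of 1558. Cpr64Aa read 1407, 1255, 1240 and 1260 in Rh1 heads and 1100, 891.9, 940.6 and 743.5 in IP, a smaller fall (-0.49, SE 0.13; limma adjusted p = 0.0114). Its CS arrays ran from 1437 to 1693 with a median of 1485. For Cpr11B and Cpr64Aa every IP array lay below every array of both head groups.

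The remaining 7 falls in IP had log2 folds between -0.99 and -0.29, in Cpr92F (-0.99, SE 0.12), Cpr47Ea (-0.86, SE 0.10), Cpr50Cb, Cpr31A, Cpr92A, Cpr76Bc and Cpr47Ef. Besides Cpr72Ec, the rises were those of Cpr62Ba, Cpr47Eb (0.65, SE 0.14), Cpr49Af and Cpr65Eb (0.24, SE 0.08). Cpr67Fb had 0.63 (SE 0.27; limma adjusted p = 0.083) with a single high array, 423.0 in IP replicate 1 beside 137.4 to 176.5 in the others. The 4 rises other than Cpr72Ec were at signals not far above the filter, with IP means of 148.1 to 292.3. The count of rises was also the less settled one: it fell to 3 without any 1 of the 4 Rh1 head arrays or without IP replicate 2, and it was 8 with median scaling, 9 with array weights and 2 with the filter at the 50th percentile.

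**Figure D2:**
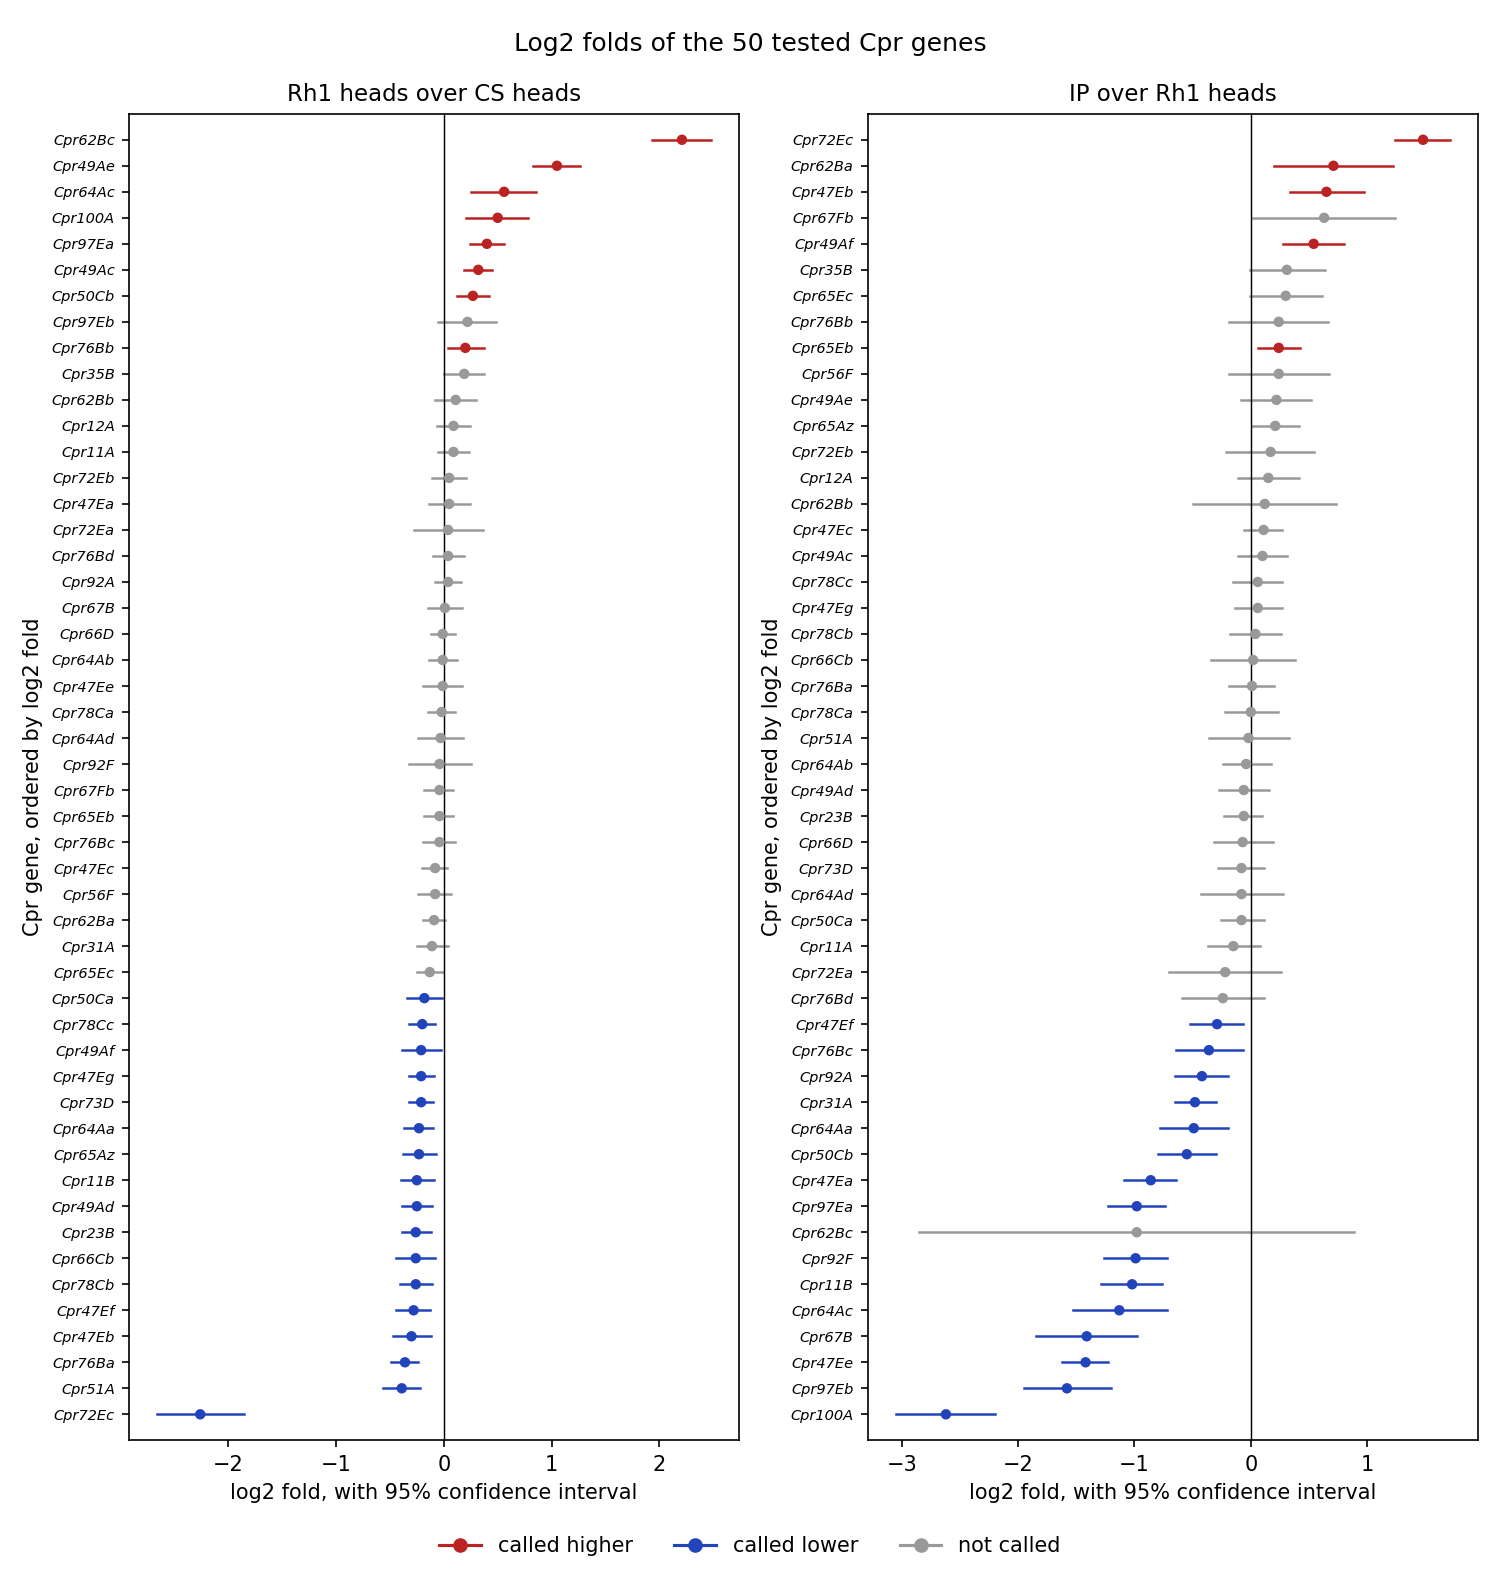
Log2 fold with 95% confidence interval for each of the 50 tested Cpr genes, in Rh1 heads over CS heads (left) and IP over Rh1 heads (right), where red marks genes called higher, blue genes called lower and grey genes not called. Cpr72Ec is at the bottom of the left panel (-2.26) and at the top of the right one (1.48), and both comparisons use the same Rh1 head arrays.

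Directly against CS heads, 10 of the 50 Cpr genes were higher in IP and 22 lower. The 32 called were 64%, against 60.9% of all tested probe sets, with 20% higher and 44% lower against 26.5% and 34.4%. Groups did not overlap for 23 genes, or 46%, against 48.7%. The median log2 fold was -0.19 against -0.05 over all probe sets. This comparison shares the IP arrays with one of the comparisons above and the CS arrays with the other, so its calls are no separate support. The count of rises was 5 without IP replicate 2 or any 1 of CS replicates 2, 3 and 6, and it was 6 without CS replicate 4 and 4 with the filter at the 50th percentile. At 2-fold or more 1 gene, Cpr49Ae, was higher (2%, background 8.34%) and 6 were lower (12%, background 8.99%). Of the genes lower in IP than in Rh1 heads, Cpr100A, Cpr50Cb, Cpr64Ac and Cpr97Ea had risen in Rh1 heads, Cpr11B, Cpr47Ef and Cpr64Aa had fallen there and 8 had not passed. Of those higher in IP than in Rh1 heads, Cpr47Eb, Cpr49Af and Cpr72Ec had fallen in Rh1 heads and 2 had not passed. Since the Rh1 head arrays enter both comparisons with opposite sign, these combinations are given only as a count. In neither comparison did 15 tested genes pass: Cpr11A, Cpr12A, Cpr35B, Cpr47Ec, Cpr56F, Cpr62Bb, Cpr64Ab, Cpr64Ad, Cpr65Ec, Cpr66D, Cpr67Fb, Cpr72Ea, Cpr72Eb, Cpr76Bd and Cpr78Ca. Over the 25 genes not called between the head groups, the 95% intervals of the log2 fold lay between -0.32 and 0.48.

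Neighbouring genes did not always move in the same direction. In the RefSeq order 29 tested Cpr genes lay in 11 runs of neighbours with no other protein-coding gene between them. In 10 of the 11 runs the tested members had different calls for Rh1 heads over CS heads, and in 4 of these some rose while others fell. For IP over Rh1 heads 8 runs had different calls, with a rise beside a fall in 1, that of Cpr47Ea (-0.86) and Cpr47Eb (0.65). Different calls include a called gene beside one that did not pass. How often runs of other genes differ in this way was not computed. In the 64A run Cpr64Aa and Cpr64Ac fell in IP, while Cpr64Ab and Cpr64Ad did not pass. Both members of the 97E pair fell, by 0.98 and 1.58 on the log2 scale.

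For the 2 genes with another probe set, the dimmer one gave other calls. That of Cpr66D was lower in Rh1 heads (-0.34, SE 0.09; limma adjusted p = 0.00443) and higher in IP (0.30, SE 0.10; limma adjusted p = 0.0298), while the brighter one passed in neither comparison. That of Cpr73D was higher in IP than in Rh1 heads (0.25, SE 0.07; limma adjusted p = 0.0115) and did not pass in Rh1 heads over CS heads (limma adjusted p = 0.340), where the brighter one fell by 0.21 on the log2 scale. The dimmer signals were 126.1 to 173.7 on average, near the filter. Which of the transcripts each probe set reads is not known here.

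Among the CS head arrays a part of the Cpr signals varied together, as did muscle and epidermal markers. Of the 20 Cpr genes with the brightest probe sets there, 9 had their lowest signal in CS replicate 4 and 12 their highest in CS replicate 5. Among the 3347 tested probe sets at least as bright, 15.8% were lowest in replicate 4 and 25.6% highest in replicate 5. Cpr100A read 2722 in replicate 4 and 4150 to 4980 in the others, and Cpr64Ac read 849.5 against 1277 to 1692. Cpr72Ec did not follow this order, with 2964 in replicate 4 and 2103 in replicate 5, and with its low values of 1561 and 1478 in replicates 1 and 2. The SD of Cpr72Ec in CS heads, 0.474 on the log2 scale, was the highest among tested Cpr genes in that group, where the median was 0.100. Muscle and epidermal markers were mostly lowest and highest on the same arrays. Other lists were not: 5 of 8 photoreceptor markers were lowest in CS replicate 5, and 5 of 6 fat body markers were highest in CS replicate 1. Of 6 cone and pigment cell markers 2 were lowest in replicate 4 and 2 in replicate 5. All 6 muscle markers were lowest in CS replicate 4 and 5 of them highest in CS replicate 5, with sums of 13830 and 24540 against 20090 to 22330 in the other CS arrays. Of 7 epidermal markers 4 were lowest in replicate 4 and 4 highest in replicate 5, with sums of 2992 and 4160 against 3629 to 3986. Most of these epidermal sums is serp and verm, at 1252 and 706.4 in replicate 4 and 1775 and 1122 in replicate 5. What part the muscle and epidermal markers have in the Cpr values was not tested. Without CS replicate 4 the counts for Rh1 heads over CS heads were 7 higher and 16 lower.

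**Figure D3:**
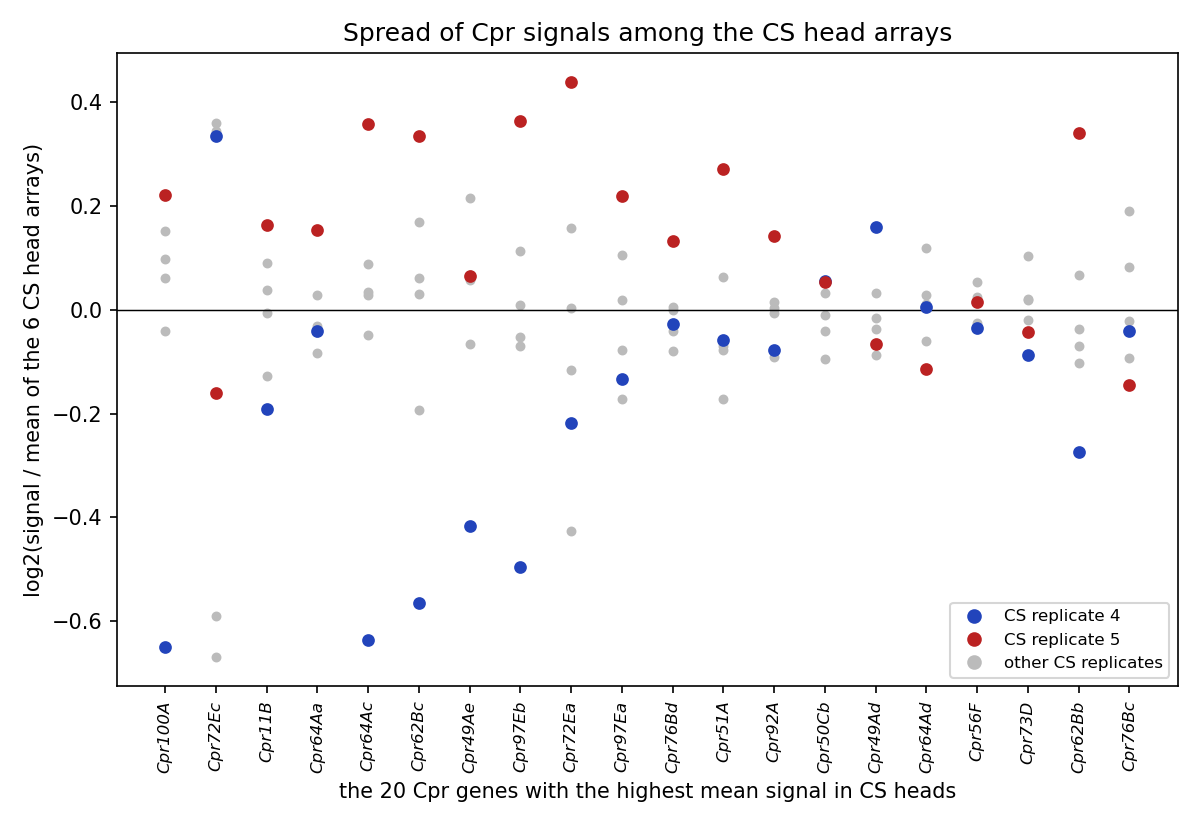
Deviation of each CS head array from the mean of the 6 arrays, as log2 of the ratio, for the 20 Cpr genes with the highest mean signal in CS heads, with CS replicate 4 in blue, CS replicate 5 in red and the others in grey. Replicate 4 is the lowest for 9 and replicate 5 the highest for 12 of the 20 genes, while Cpr72Ec has replicate 4 above the mean.

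Other genes of cuticle were described from lists set beside the family. Of 14 measured genes with the same consensus but other names (Lcp, Ccp84A and similar), 10 were tested. In Rh1 heads over CS heads 3 of them rose and 3 fell (median log2 fold -0.03), and in IP over Rh1 heads 5 rose and 1 fell (median 0.23). The probe set of Ccp84Ad had the largest fold among those called between the head groups. Its signal ran from 1547 to 3723 in CS heads with a median of 2261, against 4062 to 4678 in Rh1 heads (0.97, SE 0.18; limma adjusted p = 0.000591). Ccp84Aa, Ccp84Ab and Ccp84Af had no probe set of their own, and whether that of Ccp84Ad also reads them was not tested. In IP the Ccp84Ad probe set read 3945, 2405, 2753 and 730.1, with replicate 4 lowest as for Cpr62Bc, and did not pass (-1.03, SE 0.43; limma adjusted p = 0.0748). The list of Acp1, Edg91 and the Tweedle genes, another cuticle protein family, had 22 genes measured and 16 tested. Of these 2 rose and 8 fell in Rh1 heads (median -0.19), TwdlT at -0.50 and TwdlF at -0.40, and 1 rose and 4 fell in IP (median 0.02). Acp1, an adult cuticle protein gene, fell by 1.64 on the log2 scale in IP (SE 0.16; limma adjusted p = 2.69e-05), from 16760 to 19350 in Rh1 heads to 5048 to 6708.

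Genes that make, bind or modify chitin, the fibre that Cpr proteins attach to, were listed together with the Idgf genes, which encode chitinase-like growth factors. Of this list 14 of 22 tested genes were lower in IP and 2 higher, with a median log2 fold of -0.71. The falls include those of Idgf2, Idgf3, Idgf4, Idgf5 and Idgf6, so the count is not one of chitin genes alone. In Rh1 heads over CS heads 10 rose and 3 fell, with a median of 0.07. Gasp, which encodes a chitin-binding protein, was 938.7 to 1877 in CS heads with a median of 1669, and 2949 to 3668 in Rh1 heads (1.04, SE 0.15; limma adjusted p = 7.50e-05). The chitin-binding matrix gene obst-A (0.98, SE 0.12), the chitinase gene Cht5 (0.98, SE 0.09) and the chitin deacetylase gene verm (0.96, SE 0.13) rose by about the same. In IP over Rh1 heads the largest falls of the list were those of Idgf4 (-2.61, SE 0.23) and Idgf2 (-1.84, SE 0.18). Next came verm (-1.78, SE 0.17) and serp, another deacetylase gene (-1.60, SE 0.11). The genes kkv, knk, verm and serp of this list are also in the list of epidermal markers, whose 5 tested members had 3 lower and 1 higher in IP and 3 higher in Rh1 heads, with the other calls not passing. Of 10 tested genes of cuticle tanning 6 fell in IP and the other 4 did not pass (median -0.70). Among the falls were e, which encodes the β-alanyl-dopamine synthase Ebony (-1.78, SE 0.20), and ple, the tyrosine hydroxylase gene (-1.47, SE 0.24). Whether the head signals of e and ple come from cuticle-forming cells was not tested. In Rh1 heads 4 of the 10 rose and 3 fell (median 0.05), with t, the tan gene, whose hydrolase also serves histamine recycling at photoreceptors, at -1.18 (SE 0.08). The background shares given above apply to these lists as well.

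**Figure D4:**
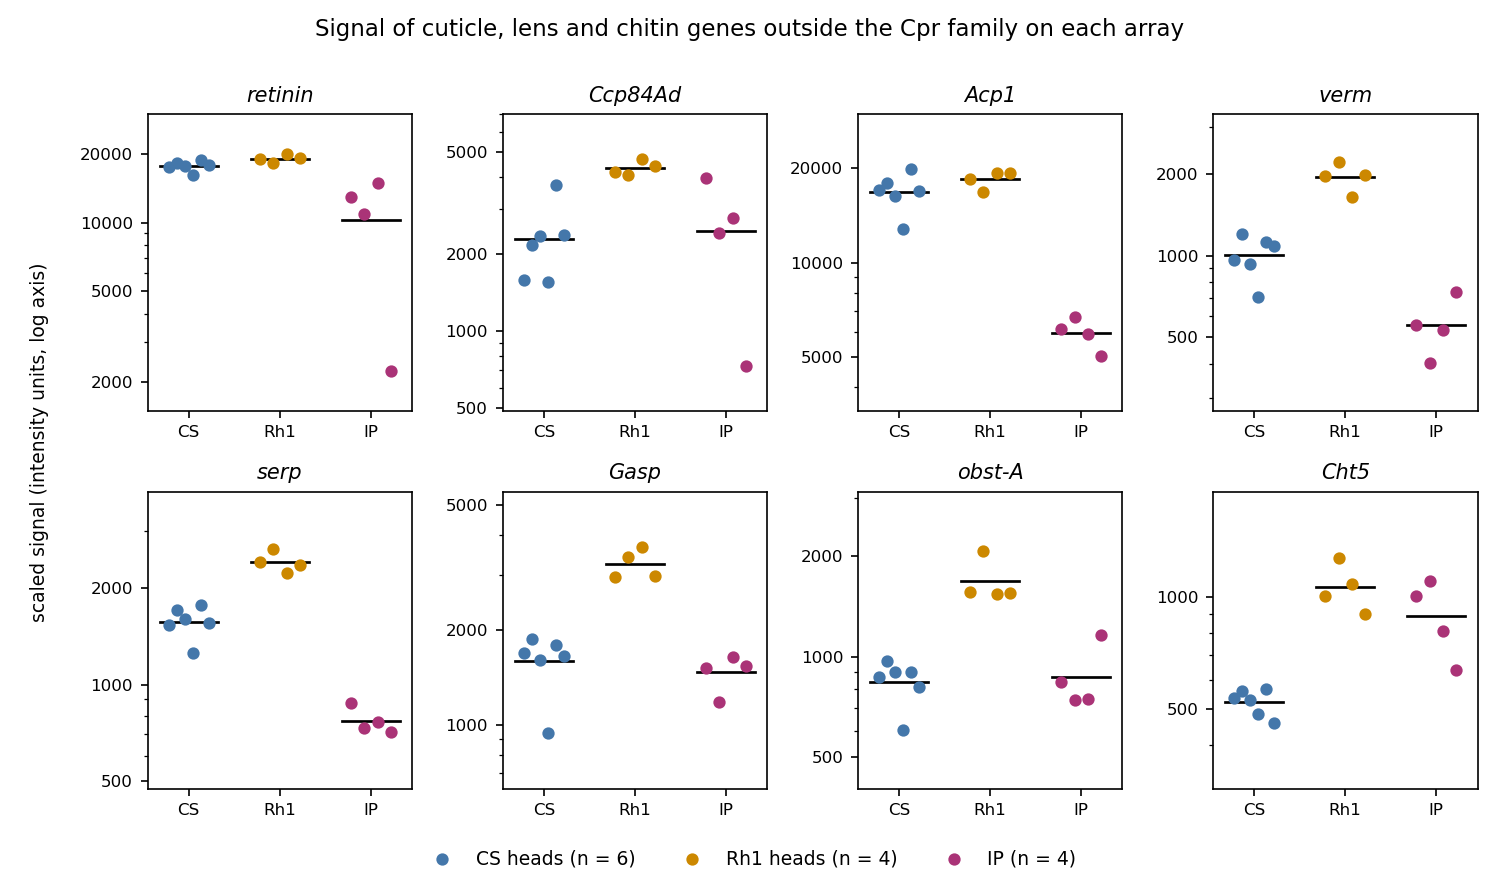
Scaled signal (log axis) of 8 genes outside the Cpr family on each array of CS heads, Rh1 heads and IP, where each point is 1 array and the bar is the group mean. Gasp, obst-A, Cht5, verm, serp and Ccp84Ad are higher in every Rh1 head array than in every CS head array, while retinin overlaps between the head groups and is lowest in IP replicate 4 (2249).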

How the data were processed

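RNA of 14 samples was read on single-colour Affymetrix arrays, prepared from total RNA per the labels. The deposited value of each probe set was a linear intensity (signal), and for the probe set algorithm, its scaling target and the array build nothing is stated in the sources at hand. Each array was rescaled to the mean trimmed mean (2% off each end) of all arrays, by factors of 0.923 to 1.11. Values were tested as log2(signal + 32) with limma 3.58.1 in R 4.3.3 (lmFit, eBayes with trend, two-sided, Benjamini-Hochberg over 9776 probe sets past the 30th percentile of the mean). Each comparison was fitted on its own groups. The number of arrays limits the precision. Probe sets were named from the platform annotation. Of those, 3 that list a Cpr gene with another gene were left out. All 58 symbols matched the RefSeq table of assembly Release 6, used for names and gene order. Values by array (for CS heads lowest, median and highest) are given for the 6 Cpr genes with the largest called folds in each of the comparisons of IP with Rh1 heads and of Rh1 heads with CS heads, for the 6 brightest in CS heads, and for Cpr72Ec and Cpr62Bc. Members, lists and alternatives were chosen with earlier results of these data known. The procedure was tested on simulated data with independent noise, the same spread in both groups and changes in a small part of the probe sets. In the real data the median SD was 0.222 log2 units in IP and 0.098 in Rh1 heads, and about as many probe sets were called as not. The simulation therefore cannot tell how reliable the calls are here. Alternatives covered pseudocount, filter, scaling, fit, array weights, probe set choice and left-out replicates.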

Additional observations from a re-analysis of the deposited data

Results flagged for a closer look

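Within groups of 4 to 6 arrays, a signal was marked where its gap to the nearest other array took up an unusually large share of the group's range (Dixon's criterion). Of 33 groups tested 3 had such an array, and chance marks about 1 in 20. Cpr100A was low in CS replicate 4, at 2722. Cpr64Ac was low in IP replicate 4, at 587.8. Cpr64Aa was high in Rh1 replicate 1, at 1407.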

How the results depend on the processing

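For the 11 genes described by array, 33 folds were recomputed under 704 alternatives in all. Of these, 689 kept their side of the threshold, 7 lost a call, 8 gained one, and no called fold changed sign. Among folds not called, 9 had the opposite sign: 1 of Cpr62Bc for IP over Rh1 heads (0.56 without IP replicates 2 and 4), 6 of Cpr47Ee (0.01 to 0.05) and 2 of Cpr67B (-0.07 and -0.02) for Rh1 heads over CS heads. Cpr genes higher in IP than in Rh1 heads, 5 as reported, numbered 2 with the filter at the 50th percentile (37 tested), 8 with median scaling, with quantile normalization or with all arrays in 1 fit, 9 with array weights, and 3 to 7 with 1 array left out. Array weights also raised calls over all probe sets from 4630 to 6969. Cpr genes lower in Rh1 heads than in CS heads, 17 as reported, numbered 10 with all arrays in 1 fit. Cpr genes higher in IP than in CS heads, 10 as reported, numbered 4 with the 50th percentile filter and 5 to 10 with 1 array left out. The cause was not tested, except that the stricter filter tests fewer genes. Replicate numbers 1 to 4 as a block gave 10 Cpr genes higher and 12 lower in Rh1 heads against CS heads (8 and 17 without it). Same-numbered arrays correlated at -0.11 to 0.10 in their deviations, and none was closest to its own number. Such correlations cannot settle whether same-numbered samples shared a cohort or day, and the labels do not say. With the block the folds of Cpr11B and Cpr64Aa (-0.18 and -0.19) did not pass and that of Cpr97Eb did (0.30, limma adjusted p = 0.0138). Signals near the filter, at 110, limit the 8 genes not tested and the smaller rises in IP.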
